A study of Mus musculus with 2 samples.

Results

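The genes described here encode splicing factors and other RNA-binding proteins of the nucleus: the SR proteins (Srsf), the heterogeneous nuclear ribonucleoproteins (Hnrnp), the numbered RNA-binding motif proteins (Rbm), the SF3A and SF3B subunits (Sf3), the pre-mRNA processing factors (Prpf), the small nuclear ribonucleoproteins (Snrnp), and the regulators Rbfox, Celf, Nova, Ptbp and Elavl. Members were chosen by gene name from these 11 families, leaving out 3 genes of the m6A writer and reader machinery (Rbm15, Rbm15b and Hnrnpa2b1). They comprised 68 of the 6929 genes in the deposited list and 156 of its 17755 sites.

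The series has 1 group of 2 libraries from nuclei of mouse cortex that were stained for the neuronal protein NeuN and flow-sorted. All mice carried APOBEC1-YTH, a cytidine deaminase fused to the domain that binds N6-methyladenosine (m6A), and received tamoxifen at 20 mg/kg every 24 hours for 5 days from 10 weeks of age, with collection 7 days after the last dose. The labels give neither the promoter that drives the fusion, nor the source of the recombination, nor the number of animals behind a library. The fusion converts cytidines close to m6A to uridines, so each listed site has an editing level, the percentage of reads with the change. One value per site stands for both libraries and no coverage is given, so depth is unknown and every spread below is across sites or genes, without replicate error. Low levels are detectable only at well-covered positions. A difference in level between genes therefore cannot be told apart from a difference in coverage, and fewer cells of a type cannot be told apart from less RNA per cell.

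Splicing removes introns through the spliceosome, a machine of small nuclear ribonucleoproteins that assembles anew on each intron. SR proteins mostly promote and hnRNPs often restrain the use of nearby splice sites. Rbfox, Celf, Nova, Ptbp2 and the neuronal Elavl proteins act in neuronal exon choice, and some of them, such as Celf1, also in other tissues. Many of these proteins also control their own transcripts through regulated exons, and several hnRNPs bind RNA whose structure m6A has opened.

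The label of the samples was checked against marker genes. Of 12 neuronal markers 6 had a site (19 sites), but 8 of the 12 belong to the families described here. Astrocyte markers had 139 sites in 4 of 6 genes, oligodendrocyte markers 37 in 5 of 5, microglial markers 12 in 2 of 3 and endothelial markers 24 in 3 of 3. The list therefore holds sites of genes known from non-neuronal cells, and since most splicing factors are made in all cell types, the cells in which their sites arose were not tested.

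Splicing genes carried sites in many, but not all, families. The RefSeq gene table holds 114 protein-coding genes that match the family names, and 68 of them (59.6%) had at least 1 site, against 28.3% of all 21900 protein-coding genes in the table. The table gives no expression, and unexpressed genes are part of the second share, so the shares describe how often RNA was both sequenced and edited. The hnRNP family had the most sites, 58 in 17 of 20 genes. The 3 hnRNP entries without a site were Hnrnpf, Hnrnph2 and Hnrnpa1l2-ps2, the last of which bears a pseudogene name. The Rbm family had 33 sites in 21 of 36 genes and the Srsf family 7 sites in 6 of 11, with Srsf5, Srsf7, Srsf9, Srsf10 and Srsf12 at 0 sites.

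**Figure D1:**
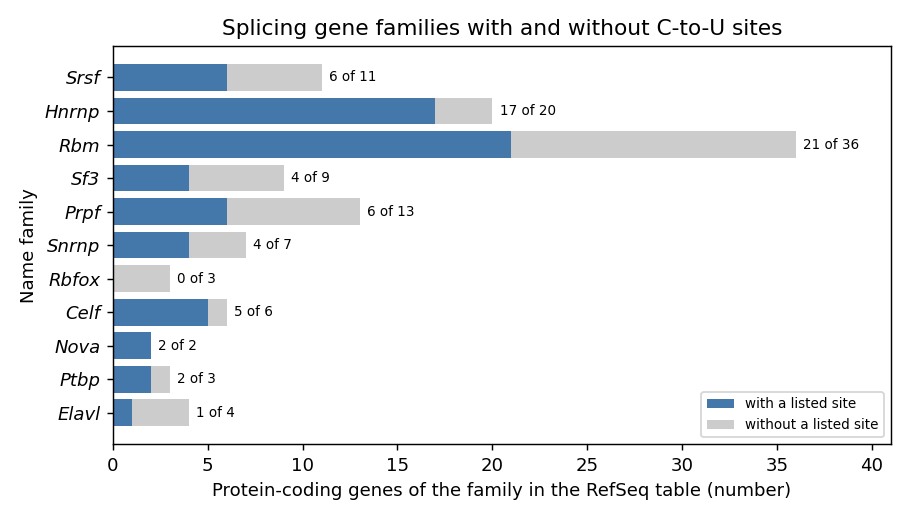
Number of protein-coding genes per name family in the RefSeq table, with (blue) and without (grey) a listed site. Hnrnp (17 of 20) and Celf (5 of 6) had a site in most genes, whereas Rbfox had 0 of 3 and Elavl 1 of 4.

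Among the core spliceosome families, Prpf had 14 sites in 6 of 13 genes, Sf3 12 sites in 4 of 9 and Snrnp 7 sites in 4 of 7. Sf3a3, Sf3b3, Sf3b4, Sf3b5 and Sf3b6 had no site, nor did Snrnp25, Snrnp40 and Snrnp70. The tissue regulators divided by family: Celf had a site in 5 of 6 genes (all but Celf6), Nova in 2 of 2, Ptbp in 2 of 3 (all but Ptbp1) and Elavl in 1 of 4. The neuronal Hu protein genes Elavl2, Elavl3 and Elavl4 had 0 sites, while Elavl1, which encodes the widely expressed HuR, had 2. Rbfox1, Rbfox2 and Rbfox3 had 0 sites, and Rbfox3 encodes NeuN, the protein used for the sort. In a gene at 0 sites, absence of methylation and thin coverage cannot be told apart.

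Most splicing genes had few sites. A single site was listed in 31 genes (45.6%; 49.2% of all listed genes) and 5 or more in 8 genes (11.8%; 13.5% of all listed genes). Hnrnpu led with 10 sites, rank 161 in the list by number of sites. The other 7 genes were Hnrnpa0, Hnrnpul2 and Sf3b1 with 6 sites each and Hnrnpab, Hnrnpul1, Hnrnph3 and Celf1 with 5 each, so 6 of the 8 were hnRNP genes.

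The typical editing level was below that of the whole list. The median of the gene means was 3.87% over the 68 genes and 5.0% over all listed genes, and the median site was at 2.82% against 3.64%. Among sites of at least 2% only, the medians of gene means were 5.56% and 5.76%, and among sites of at least 5% only they were 9.24% and 9.09%. Of the 156 sites, 62 (39.7%) lay under 2%, against 24.6% of all listed sites. At the other end, 28 sites (17.9%) reached 10%, against 14.9%, and 5 (3.21%) reached 20%, against 2.02%.

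**Figure D2:**
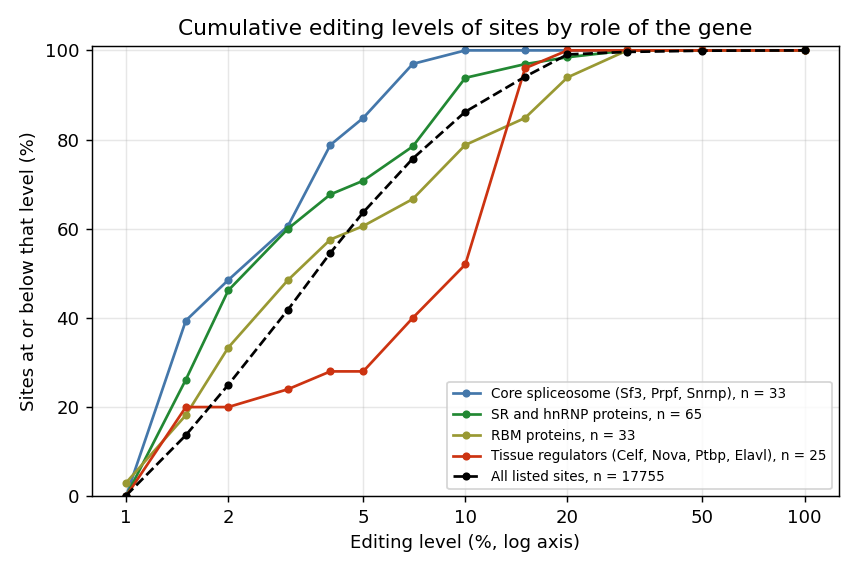
Share of sites (y axis, percent) at or below an editing level (x axis, percent, log scale) for 4 groups of splicing genes and for all listed sites (dashed). All 33 sites of core spliceosome genes lay at or below 10%, against 52.0% of the 25 sites of tissue regulators and 86.2% of all listed sites.

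Core spliceosome genes (Sf3, Prpf, Snrnp) had low gene means, although single sites reached up to 7.14%, above the 3.64% of the median listed site. Their 14 gene means ran from 1.04% to 4.20% with a median of 3.04%, all below the listed genes' median, and 0 of 33 sites reached 10%. Sf3b1, which encodes the branch-point-recognising subunit of SF3B (chromosome 1, 54985169 to 55027501), had 6 sites at 1.05%, 1.06%, 1.16%, 1.25%, 1.46% and 1.67%. The 6 values lie close to the lowest level the list contains, 1.0%, and are spread over 24.96 kb of the gene. Sf3b2, its partner subunit, had 2 sites at 1.03% and 1.04%.

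Prpf8, the scaffold of the catalytic centre (chromosome 11, 75486777 to 75509447), had 4 sites at 1.29%, 1.90%, 5.41% and 6.45%. Snrnp200, the helicase that readies the spliceosome for catalysis (chromosome 2, 127208386 to 127240453), had 4 at 1.40%, 1.61%, 4.44% and 5.88%. In both genes the sites formed a lower and a higher pair. Prpf4b, a protein kinase that phosphorylates spliceosomal proteins, held the highest site of the group at 7.14%, beside sites at 1.02% and 2.24%. Sf3a1, a subunit of SF3A, had 3 sites from 2.53% to 3.51%, a mean of 3.05% ± 0.49 (SD across sites). Snrnp27, a protein of the tri-snRNP, had 1 site at 3.64%.

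The hnRNP genes ranged more widely. Their 17 gene means went from 1.09% in Hnrnpc to 9.14% in Hnrnpdl, with a median of 4.39%, and 8 of them were below 2%, as were 10.4% of all listed genes. Hnrnpu encodes a scaffold protein that links RNA to chromatin (chromosome 1, 178321108 to 178338891). From the 3′ end to the 5′ end its sites stood at 8.57%, 5.63%, 3.03%, 3.17%, 3.92%, 3.39%, 9.09%, 14.3%, 1.89% and 1.16%. The 8 sites nearer the 3′ end were all above 3%, and the 2 at 1.16 and 1.31 kb from the 5′ end were both below 2%.

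Hnrnpa0 spans only 2678 bases (chromosome 13, 58125879 to 58128556) and had 6 sites, 2.24 per kb, the highest density among the members. From the 3′ end they read 16.7%, 7.14%, 6.25%, 8.00%, 6.25% and 1.28%. Hnrnpab, which binds single-stranded RNA and DNA (chromosome 11, 51600100 to 51606881), had sites at 5.71%, 2.90%, 2.90%, 10.0% and 1.18%. The site nearest the 5′ end had the gene's lowest level in 5 of the 8 genes with at least 5 sites (Hnrnpu, Hnrnpa0, Hnrnpab, Hnrnpul2 and Sf3b1), and not in Hnrnph3, Hnrnpul1 and Celf1. In Sf3b1 (1.05% against 1.06%) and Hnrnpul2 (1.08% against 1.10%) the next lowest site was almost equal. The share among all listed genes with at least 5 sites was not computed, so no trend along the gene is read from this count.

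A second set of hnRNP genes had several sites that all stayed low. Hnrnpul2 had 6 sites from 1.08% to 2.73%, and Hnrnpul1, its relative with a role in DNA break repair, 5 from 1.23% to 2.30%. Hnrnph3, of the G-run-binding class, had 5 from 1.10% to 2.11%. These 3 genes were set apart after their values were seen, and the Hnrnpu sites at 1.16% and 1.89% lie within the range of Hnrnpul2.

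**Figure D3:**
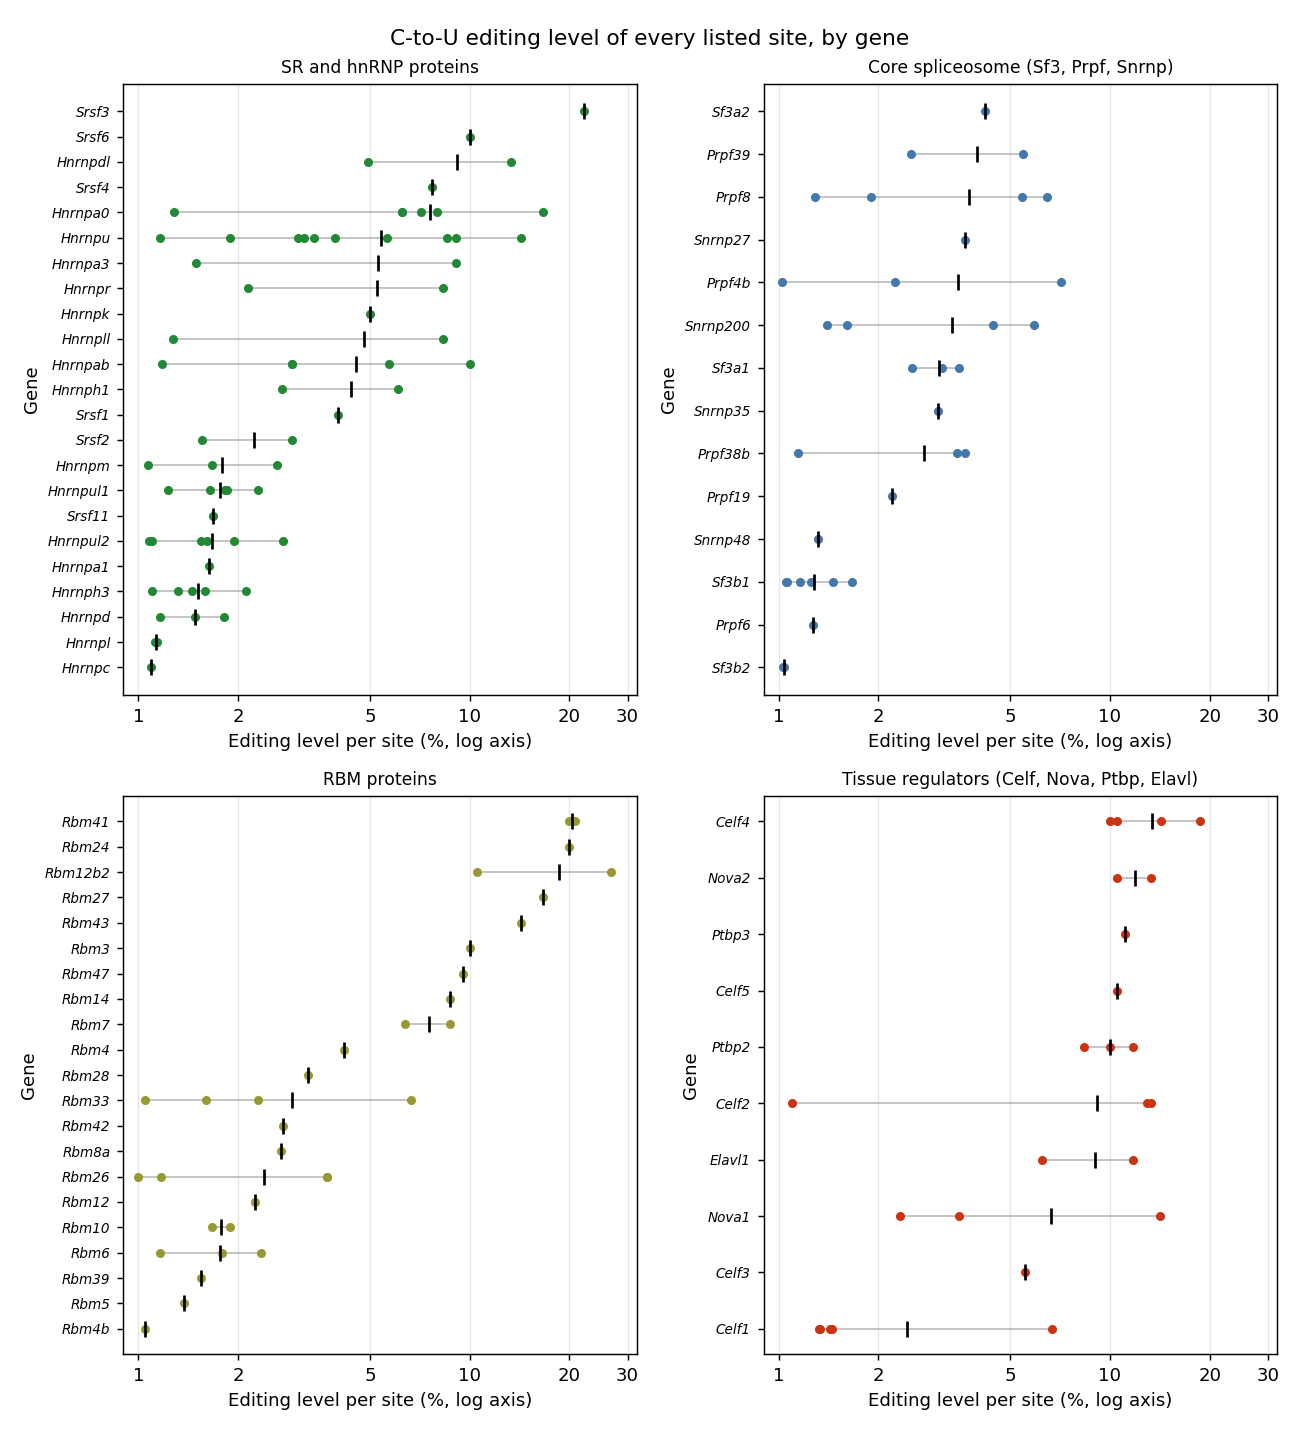
Editing level of each of the 156 sites (points; x axis, percent, log scale) by gene (y axis), in 4 groups of genes; black ticks are gene means and grey lines the range. Core spliceosome genes end at 7.14%, while 5 of 10 tissue regulators have a mean of at least 10% (19.9% of all listed genes do).

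SR protein genes had 7 sites in all. Srsf3, which encodes the smallest SR protein and a partner of the nuclear m6A reader YTHDC1 (chromosome 17, 29032660 to 29043372), had 1 site at 22.2%, 999 bases from the 3′ end. Srsf6 had 1 site at 10.0%, Srsf4 at 7.69%, Srsf1 at 4.0% and Srsf11 at 1.68%, and Srsf2 had 2 at 1.56% and 2.90%. Of the 7 sites, 6 were within 5 kb of the 3′ end, against 49.7% of all listed sites. Srsf2 spans only 3.78 kb, so its sites could lie nowhere else. Srsf6, Srsf1 and Srsf3 span 5.61, 7.26 and 10.7 kb, which leaves little room elsewhere, while Srsf4 spans 28.2 kb.

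The Rbm genes held 4 of the 5 splicing-gene sites at 20% or more. These were 4 of the 33 Rbm sites, and 2.02% of all listed sites reached 20%. Rbm12b2 had the highest site of all members, 26.7% (chromosome 4, 12093862), and a second at 10.5%. Its paralogue Rbm12b1 had no site; whether the 2 copies share reads was not tested, so the assignment is uncertain. Rbm41, a protein of the minor spliceosome (chromosome X, 139889511 to 139998595), had 2 sites at 20.0% and 20.8%, which lie 25.8 kb apart. Rbm24, a regulator of muscle splicing, had its only site at 20.0%. Rbm27, which acts in nuclear RNA decay, had 1 at 16.7%, and Rbm43 1 at 14.3%.

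Other Rbm genes were low. Rbm26, the relative of Rbm27, had 4 sites at 1.0%, 1.17%, 3.70% and 3.70%. Rbm33, a partner of the demethylase ALKBH5, had 4 at 1.05%, 1.60%, 2.30% and 6.67%. The 21 gene means ran from 1.05% to 20.4% with a median of 3.26%. Of them, 6 were at least 10% (19.9% of all listed genes) and 5 under 2% (10.4% of all listed genes). In the Rbm family 14 genes rested on 1 site each, so their level is that of a single base.

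The tissue regulators had the highest typical level of the 4 groups. The median of their 10 gene means was 9.57%, with a range of 2.44% to 13.4%, and 14 of 25 sites (56.0%) reached 10%, against 14.9% of all listed sites. Without the Celf genes the median was 10.0%. Among sites of at least 5% only, it was 10.8%, against 9.09% over all listed genes. Across the 4 groups the medians were thus 3.04%, 3.26%, 4.39% and 9.57% for core spliceosome, Rbm, SR with hnRNP, and tissue regulators. Of the gene means, 9 of 10 tissue regulators were above the highest core spliceosome gene, the exception being Celf1. That core gene, Sf3a2 at 4.20%, is itself below the 5.0% median of all listed genes, so most listed genes are above it too. No test was made between these groups, which were chosen with results known. Without coverage, their order cannot be told apart from differences in depth.

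Celf4, a neuronal regulator of mRNA fate (chromosome 18, 25477620 to 25754520), had 4 sites at 10.0%, 10.5%, 14.3% and 18.8%, all in the last 2.02 kb of a 277 kb gene. Celf1, which binds GU-rich sequences and acts in many tissues (chromosome 2, 90940259 to 91019497), had 5 sites at 1.32%, 1.33%, 1.43%, 1.45% and 6.67%. The values of the 2 genes did not overlap, but how often this holds for other pairs of listed genes was not counted. Celf2, the longest member at 857 kb, had 2 sites 4.94 and 5.44 kb from its 3′ end at 12.9% and 13.3%, and another site 345 kb from that end at 1.10%.

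Nova2, a neuronal regulator of alternative exons (chromosome 7, 18925888 to 18965319), had 2 sites at 10.5% and 13.3%. Nova1, its paralogue (chromosome 12, 46697895 to 46819480), had 2.33% and 3.51% near the 3′ end and 14.1% at 587 bases from the 5′ end. Ptbp2, the neuronal polypyrimidine tract-binding protein, had 8.33%, 10.0% and 11.8%, and Ptbp3 had 1 site at 11.1%. Elavl1 had 6.25% in its last 5 kb and 11.8% at a position 159 bases upstream of its RefSeq span.

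For 5 sites of 4 genes the surrounding bases could be read, because the sites fall in the RefSeq promoter windows (GRCm38.p6, which mm10 names; 250 bases before to 50 after a listed start). They are shown because they give the base context of the edited cytidine, in capitals, with the strand of the gene, 5′ to 3′:
Hnrnpl: ggctgctgccCcgggCgga
Elavl1: gcgggccaggCtccaactcac
Celf5: cagctcctgcCcgggcctggc
Nova1: cctcagactgCtattgatccg

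The stretches are chr7:28810921-28810939 (plus strand), chr8:4325289-4325309 (minus), chr10:81482653-81482673 (minus) and chr12:46818883-46818903 (minus). The Hnrnpl pair, 5 nt apart, was edited at 1.12% and 1.14%; the Elavl1 site at 11.8%, the Celf5 site at 10.5% and the Nova1 site at 14.1%. All 5 positions are cytidines on the strand of the gene. The base before the edited cytidine was G at 3 of the 5 sites and C at 2, and A at 0. The m6A consensus has a purine followed by AC, so GAC and AAC were searched on the gene's strand in the stretches shown, which are 19 bases long for Hnrnpl and 21 for the others. The Nova1 stretch has GAC, its C 3 bases before the edited one, and the Elavl1 stretch has AAC, its C 6 bases after it. The Hnrnpl and Celf5 stretches have neither. Stretches of 21 bases centred on any cytidine of the windows described next held GAC or AAC in 31.3% of 12324 cases. For stretches centred on listed sites in these windows the share was 35.0% of 117.

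Across the whole list, 145 sites fell in a window of their own gene, and all 145 positions were cytidines. Of the 144 with 3 bases before them, 16 (11.1%) followed an A, against 12.7% of all cytidines in the same 138 windows, and 77 (53.5%) followed a G, against 35.1%. The full motif GAC ended at 5 of the 144 sites (3.47%, against 3.93% of cytidines), and GGAC at 2 (1.39%, against 1.35%). Of all 32851 windows in the table, 96.9% hold GAC and 65.6% hold GGAC somewhere on the gene's strand. These windows lie at gene starts and hold few of the listed sites, so the values do not describe sites near 3′ ends.

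The share of sites near 3′ ends was that of the list: of the 154 sites inside their gene's span, 77 (50.0%) lay within 5 kb of the 3′ end, against 49.7% of all listed sites. By group the share was 62.5% for SR and hnRNP genes, 62.5% for tissue regulators, and 33.3% each for Rbm and core spliceosome genes. The median span was 12.2 kb for SR and hnRNP genes, 71.7 kb for tissue regulators, 17.1 kb for Rbm genes and 22.4 kb for core spliceosome genes, against 32.6 kb in the list, and short spans leave less room outside the last 5 kb. In genes of 20 kb or more, 37.2% of the members' sites were in that stretch, against 41.6% of all listed sites. In the last 2 kb the members' share was 22.1%, against 29.8% of all listed sites. Pooled over genes, the median level was 3.92% for the 77 sites in the last 5 kb and 1.90% for the 64 sites that were neither there nor in the first 1 kb, against 4.35% and 2.94% in the whole list.

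**Figure D4:**
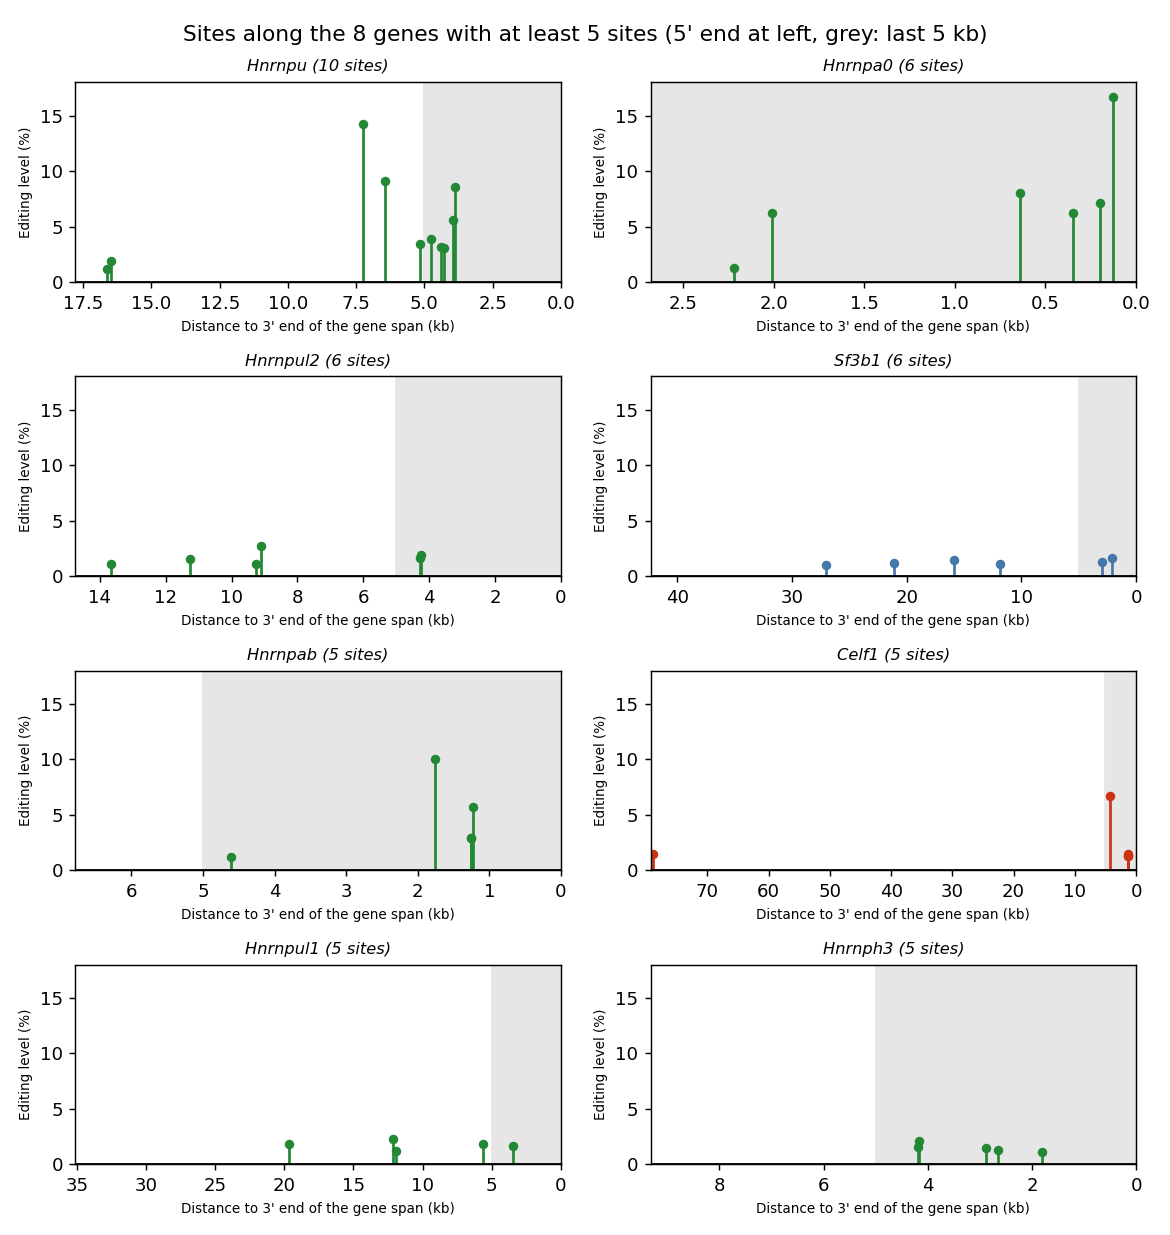
Editing level (y axis, percent) against distance to the 3′ end of the gene span (x axis, kb, 5′ end at left) for the 8 genes with at least 5 sites; grey marks the last 5 kb. Hnrnpa0, Hnrnpab and Hnrnph3 have all sites in that stretch, while 4 of the 6 Sf3b1 sites lie outside it.

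The order of the levels inside and outside the last 5 kb varied between genes. Of 16 members with sites both inside and outside the last 5 kb, 10 (62.5%) had the higher mean inside, against 70.9% of the 1619 such genes in the list. The median difference within a gene, inside minus outside, was 0.19 points for the members and 1.36 points for those 1619 genes. Hnrnpa3 (9.09% inside, 1.49% outside) and Prpf4b (7.14% and 1.63%) were among the 10. Nova1 (2.92% and 14.1%) and Hnrnpdl (4.94% and 13.3%) had the largest differences the other way, although the Hnrnpdl site at 13.3% also lies under the span of Enoph1, and Snrnp200, Prpf38b, Hnrnpu and Hnrnpul1 were the remaining genes with the lower mean inside.

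A smaller set of sites lay at gene starts. Of the 154 placed sites, 15 (9.74%) were in the first 1 kb, against 8.00% of all listed sites. Hnrnpd, an AU-rich-element binding protein, had 2 of its 3 sites there, at 1.16% and 1.81%, and its other site was also far from the 3′ end, at 1.48%. Rbm24, Rbm42 and Celf5 had their only site in that stretch. Hnrnpa0, whose whole span lies in the last 5 kb, had 2. Sf3a1, Prpf38b, Rbm33, Rbm7, Hnrnpll, Hnrnpdl, Celf1 and Nova1 had 1 site each there.

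Few sites of splicing genes had a close neighbour. Of the 156 sites, 21 (13.5%) had a listed neighbour no more than 100 nt away on their strand, compared with 22.9% of all listed sites. Within 20 nt the shares were 8.97% and 8.72%. The 21 sites formed 11 adjacent pairs in 10 genes. Hnrnpab had 2 sites 2 nt apart, both at 2.90%, Sf3b2 2 sites 4 nt apart, and Hnrnpl the pair shown above. The level differed by less than 1 percentage point in 8 of the 11 pairs, with a median difference of 0.52 points. For the 77 adjacent pairs farther apart the median difference was 1.63 points, and 32 differed by less than 1 point. Over the whole list the medians were 0.82 and 1.65 points. Neighbouring sites can be read from the same RNA fragments, so their levels are not independent measurements.

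**Figure D5:**
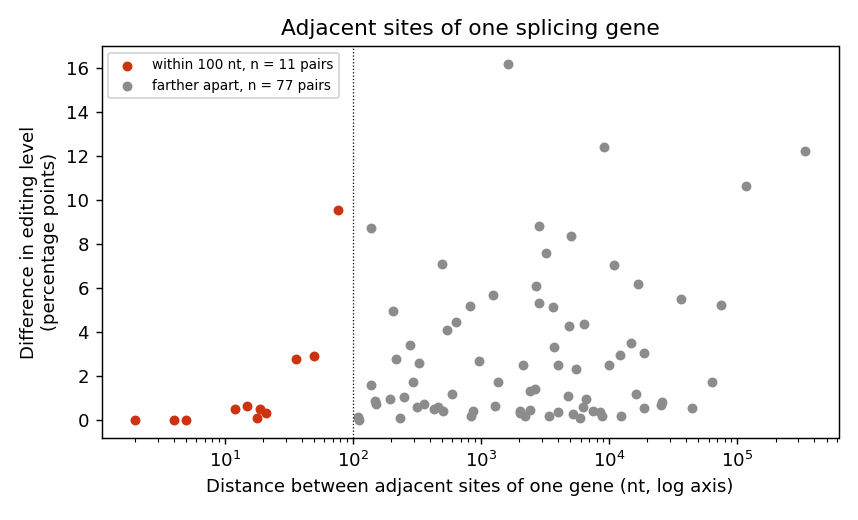
Difference in editing level between adjacent sites of one splicing gene (y axis, percentage points) against their distance (x axis, nt, log scale); each point is a pair, red within 100 nt. Of the 11 close pairs 8 differ by less than 1 point, and the largest difference, 9.53 points, is in Hnrnpa0.

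The assignment of some sites to a gene is uncertain. Of the 156 sites, 13, in 10 genes, also lie under the span of another gene, and the table gives no strand for spans. They include 4 of the 5 Hnrnpab sites (Phykpl), the Rbm12 site (Cpne1), the upper Elavl1 site (Ccl25), the upper Hnrnpdl site (Enoph1) and 1 Srsf2 site (Mfsd11). Rbm4 and Rbm4b are close paralogues and neighbours on chromosome 19 that lie, with Rbm14, under the span of Gm21992, so the split of their sites is uncertain too. Whether a site is exonic, intronic or in a UTR was not determined, because exon positions were not used here.

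Splicing genes outside these name families also carried sites. A list of 83 further spliceosome components, splicing kinases and regulators had a site in 60 genes (72.3%, against 28.3% of all protein-coding genes), with 153 sites. Of the 83 names, 82 are symbols in the gene table. Qki is not among them and was counted as having no site, but sites under another name of the gene were not looked for. If it has one, the share is slightly too low. The median of their gene means was 3.04% and 39.2% of the sites were in the last 5 kb. Son, a nuclear speckle protein, had the most sites (11, from 1.02% to 8.14%), none of them in the last 5 kb. The helicase genes Dhx8 and Ddx46 had 7 and 6 sites, the muscleblind gene Mbnl1 and the Musashi gene Msi2 6 each, and Sart1 5. The gene means of these 6 ran from 1.61% in Msi2 to 4.67% in Mbnl1. Over all 60 genes they ran from 1.01% in Clk3 to 41.1% in Cwc22, and 6 genes (10%) had a mean of at least 10%, against 19.9% of all listed genes. Cwc22, a spliceosome protein that also loads the exon junction complex, had 4 sites from 3.33% to 91.1% and, like Clk3, is named after its values were seen. Of all listed sites, 99.9% were at or below 50%. Whether sites as high as the top Cwc22 site are genomic variants was not tested.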

How the data were processed

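Nuclear RNA of 2 libraries of 1 group was analysed; per the labels' protocols, nuclei were fixed in 50% ethanol before sorting; one label calls the RNA polyadenylated, yet the kit named is for total RNA. Sites of C-to-U conversion were called by the authors with the Bullseye pipeline, per the series' design text, and STAR 2.7.5 and mm10 are named in the submitters' processing notes. The deposited list gives an editing fraction for each site, without coverage; here fractions are printed as percent. The merging of both libraries, the control and the required coverage were not given in the labels or headers.

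Names were matched to the RefSeq gene table of GRCm38.p6 (all 68 members by symbol); 2 member sites lay outside their gene's span. Distances refer to the ends of the span. Counting was done in Python 3.11.15 with pandas 2.3.3, and the position functions were tested on simulated data. No p-value was computed. The members and lists were chosen with earlier results of these data known. Named genes are members with at least 5 sites, the 2 with most sites per family, those of the 10 highest sites and of sites of at least 20%, and 6 other splicing genes; further members complete a group's description or were picked after their values were seen.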

Additional observations from a re-analysis of the deposited data

How the results depend on the processing

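Of 40 recomputed values of 8 results, 25 stayed close to the reported value (shares within the exact 95% interval, counts and medians within 1.5 times) and 15 moved further. The minimum level mattered most. With sites of at least 2%, 94 member sites in 48.2% of family genes were left (26.3% of all protein-coding genes). With at least 5% there were 56 sites in 36 genes (31.6%, against 17.7%), with a median gene level of 9.24% (9.09% over all listed genes) and 5.91% for core spliceosome genes. With at least 20% there were 5 sites in 4 genes (3.51%, against 1.28%). With at least 2% the median gene level was 5.56%, against 5.76% over all listed genes. The gap was thus small at 2%, and the lower median of the members did not hold at 5%, where the list had 9.09%. Near the 3′ end the share was 22.1% for the last 2 kb (29.8% in the list), 64.9% for the last 10 kb (61.1%), 63.0% with sites of at least 5% (61.0%) and 37.2% in genes of 20 kb or more (41.6%). Within 500 nt, 31.4% of sites had a neighbour (39.0% in the list). The median of tissue regulators was 9.57% to 11.8% in all its settings, but at 5% it was 10.8% against 9.09% in the list, where the main values were 9.57% and 5.0%. Settings for group medians, and those leaving out the Celf genes or sites under another gene, were chosen after seeing the data. Leaving out a library was not run, because each site has 1 value for both. The depth is unknown, and the list starts at 1.0%.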
